A study of Mus musculus with 6 samples.

Results

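Expression of the immunity-related GTPases (IRGs) was examined in MEFs, fibroblasts grown from mouse embryos, after acute knockdown of *Yme1l*. The family was taken by gene name, as *Irgm1*, *Irgm2*, *Igtp*, *Iigp1*, *Ifi47*, *Tgtp1*, *Tgtp2*, *Gm4951* and *Gm12250*, with names that the deposited count table joins by commas split. All 9 genes were found, in 8 of the 51499 loci of the table, because *Igtp* and *Irgm2* shared a locus. YME1L is an ATP-dependent protease of the mitochondrial inner membrane, and the comparison asks which transcripts differ from control cultures once it has been depleted for 72 h. One group received the scrambled control siRNA (Scr) and the other Yme1l siRNA, each in WT MEFs and with 3 independent cultures. Per the methods, the MEFs came from animals with loxP sites in *Yme1l*, were immortalized with SV40 large T antigen and exposed to Cre, and the WT line is an expanded clone that kept the loxP alleles. The labels instead call the cells 3T3 immortalized. The strain of the animals for these cells was not given in the sources used here.

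Poly(A) RNA was sequenced, and the libraries held 45205207, 37260605 and 41929579 counts for Scr and 43630145, 42161756 and 41342446 counts for Yme1l siRNA. Levels are given as CPM, which are counts scaled to a common library size of 1e6, after scaling with edgeR's TMM method, with SD over the 3 cultures of a group, and SE denotes the standard error of each log2 fold change. A locus was called higher or lower at an adjusted p under 0.05 from edgeR's quasi-likelihood test over all 14499 loci tested. RNA was pooled from many cells, so a larger share of responding cells and more RNA in each cell cannot be told apart. The fibroblast label was checked on 10 marker genes. Collagen and fibronectin transcripts were abundant, with a summed level of the markers between 33500 and 40700 CPM in Scr cultures and between 18000 and 22400 CPM in Yme1l siRNA cultures, and *Col1a1* was the most abundant. *Thy1*, a surface marker of many fibroblasts, had at most 1 count in any library, and *Lum* at most 15. Of the 8 fibroblast markers tested, 7 were lower after *Yme1l* knockdown, where 29.6% of all loci tested were, and *Vim* was not called (log2 fold change -0.19, edgeR test, adjusted p = 0.12). *Vim* passed as lower without Scr replicate 3, with a log2 fold change of -0.27 (edgeR test, adjusted p = 0.0334), but not without Scr replicate 2 (-0.14, adjusted p = 0.317).

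IRGs are large GTPases of cell-autonomous immunity that interferons induce in mouse cells, best known for their action on the vacuoles in which intracellular parasites and bacteria live. They form a pair of classes, named after the residues of the nucleotide-binding loop. The GKS proteins are effectors that bind to the vacuole membrane and help to break it. The GMS proteins IRGM1, IRGM2 and IGTP sit on membranes of the cell itself and hold the effectors in their inactive, GDP-bound state there. Loading of the vacuole also needs the ATG8 conjugation machinery of autophagy, and guanylate binding proteins (GBPs) act beside the IRGs.

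*Yme1l1*, which encodes YME1L, had levels of 170, 171 and 171 CPM in the Scr cultures and of 31.6, 23.4 and 45 CPM in the Yme1l siRNA cultures. The groups were far apart, and Yme1l siRNA replicate 3 kept the most *Yme1l1* transcript. Its log2 fold change was -2.36 (SE 0.20, edgeR test, adjusted p = 3.87e-05).

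Of the 9 IRG genes, 7 had a promoter in the RefSeq table for GRCm38.p6, which holds 250 bases before and 50 bases after each start. These windows were searched on both strands for GAAANNGAA, the core of the interferon response element, and for TTCNNNGAA, the gamma-activated site. The patterns can overlap, since TTCNNNGAA ends with the GAA that begins GAAANNGAA. The 100 bases before the start are shown for the 6 promoters with a match. Each is written from 5′ to 3′ on the strand of the gene, with matches to either motif in capitals.
Irgm1: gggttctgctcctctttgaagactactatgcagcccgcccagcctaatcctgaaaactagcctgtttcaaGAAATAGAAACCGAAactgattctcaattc
Igtp: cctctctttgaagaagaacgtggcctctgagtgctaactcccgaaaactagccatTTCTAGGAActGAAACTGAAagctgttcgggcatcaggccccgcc
Irgm2: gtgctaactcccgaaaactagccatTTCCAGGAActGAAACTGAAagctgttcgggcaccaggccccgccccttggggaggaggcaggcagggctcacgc
Tgtp1: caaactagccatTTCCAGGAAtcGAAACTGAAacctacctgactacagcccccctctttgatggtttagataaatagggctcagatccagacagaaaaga
Tgtp2: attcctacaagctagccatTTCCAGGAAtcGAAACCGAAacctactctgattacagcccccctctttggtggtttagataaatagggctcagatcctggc
Gm12250: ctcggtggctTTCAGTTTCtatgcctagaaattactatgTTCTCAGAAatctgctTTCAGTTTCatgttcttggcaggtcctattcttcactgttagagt

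The stretches lie on chromosome 11, at chr11:48871421-48871520 on the minus strand for *Irgm1*, chr11:58199456-58199555 on the plus strand for *Igtp* and chr11:58214877-58214976 on the plus strand for *Irgm2*. Those of *Tgtp1* and *Tgtp2* lie on the minus strand at chr11:48992247-48992346 and chr11:49064213-49064312, and that of *Gm12250* on the plus strand at chr11:58183743-58183842. GAAANNGAA matched in 6 of the 7 IRG promoters examined, all on chromosome 11, and TTCNNNGAA in 5. Over all 32851 promoters of the table, the shares were 8.56% and 8.30%, and 1.07% held both. *Irgm1* had a pair of overlapping GAAANNGAA matches, which began 30 and 24 bases before the start, and *Gm12250* had its matches to this motif in the reverse direction. In *Igtp*, *Irgm2*, *Tgtp1* and *Tgtp2*, a TTCNNNGAA match was followed after 2 bases by GAAANNGAA, so that they began 45 and 34, 75 and 64, 88 and 77, and 81 and 70 bases before the start. This order and spacing, counted after it had been seen in the IRG promoters, occurred in 8 of the 32851 promoters (0.0244%). The other 4 were those of *Gm12185*, a further IRG gene, *Adar*, which encodes an RNA-editing enzyme, the olfactory receptor gene *Olfr382* and the uncharacterized *LOC115488470*. The windows of *Igtp* and *Irgm2* shared an identical run of 61 bases and those of *Tgtp1* and *Tgtp2* a run of 27 bases. The window of *Ifi47* held neither pattern.

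The GMS regulators were the most abundant IRGs in control cultures and rose 3- to 4-fold. *Irgm1* (XLOC_007619), whose protein is found on the Golgi and on lysosomes, had levels of 91, 81.4 and 57.9 CPM in the Scr cultures and of 255, 280 and 148 CPM in the Yme1l siRNA cultures. All Yme1l siRNA cultures lay above all Scr cultures, with Scr replicate 3 and Yme1l siRNA replicate 3 the lowest of their groups. The means were 76.8 ± 17 and 227 ± 70.1 CPM (mean ± SD, 3 cultures per group), and the log2 fold change was 1.57 (SE 0.24, edgeR test, adjusted p = 0.000747).

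The locus of *Igtp* and *Irgm2* (XLOC_006318) had levels of 78.9, 56.9 and 36.3 CPM in the Scr cultures and of 261, 305 and 137 CPM in the Yme1l siRNA cultures. *Igtp* encodes a regulator of the endoplasmic reticulum and *Irgm2* one of the Golgi. The groups did not overlap, and replicate 3 was again the lowest in each. The mean rose from 57.4 ± 21.3 to 235 ± 87.0 CPM (mean ± SD, 3 cultures per group), with a log2 fold change of 2.03 (SE 0.34, edgeR test, adjusted p = 0.00102). How much of this belongs to each gene cannot be told from the count of the locus. In the GENCODE M21 annotation, an *Irgm2* transcript begins inside *Igtp*, and exons of the genes share 162 bases.

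The GKS effectors were scarce in control cultures, and their log2 fold changes ran from 2.39 to 4.03. *Iigp1* (XLOC_020687), a well-studied effector of the family, had 265, 123 and 62 counts in Scr cultures and 1553, 1782 and 365 in the Yme1l siRNA cultures, or 6.12, 3.41 and 1.47 against 35.0, 41.0 and 8.66 CPM. Yme1l siRNA replicate 3 lay nearer to Scr replicate 1 than to the other cultures of its group. The log2 fold change was 2.94 (SE 0.62, edgeR test, adjusted p = 0.00369). Without Scr replicate 1 it was 3.54.

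*Ifi47*, an effector also known as *Irgd*, is counted with the olfactory receptor gene *Olfr56* (XLOC_006182). Its levels were 7.18, 4.10 and 1.87 CPM in the Scr cultures and 27.3, 34.3 and 7.48 CPM in the Yme1l siRNA cultures. The groups barely separated, since the lowest Yme1l siRNA culture was 1.04 times the highest Scr culture. The log2 fold change of 2.39 (SE 0.59) had the largest adjusted p of the family, 0.00792 from edgeR. Exons of *Ifi47* overlap those of *Olfr56* on the same strand over 111 bases and of *Gm12188* on the opposite strand over 106 bases, and whether counting kept the strands apart was not stated.

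*Tgtp1* and *Tgtp2* encode nearly the same effector, IRGB6, which is among the first to reach the vacuole. Their transcripts were 99.75% identical over 2811 aligned bases, and the treatment of reads that match both was not stated, so how the counts divide between them is uncertain. The locus of *Tgtp1*, joined with *Gm12185* (XLOC_007621), had 1.76, 0.942 and 0.711 CPM in the Scr cultures and 18.8, 31.0 and 6.48 CPM in the Yme1l siRNA cultures. Its log2 fold change of 4.03 (SE 0.58, edgeR test, adjusted p = 0.000502) was the largest of the 8 loci. *Tgtp2* (XLOC_007625) had 17, 17 and 11 counts in Scr cultures and 161, 284 and 51 in the Yme1l siRNA cultures. It had a log2 fold change of 3.34 (SE 0.60, edgeR test, adjusted p = 0.00155), which was 2.70 without Yme1l siRNA replicate 2. At both loci every Yme1l siRNA culture exceeded every Scr culture, by at least 2.57 times at *Tgtp2* and 3.69 times at *Tgtp1*.

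*Gm12250* encodes IRGB10, an effector that attacks bacterial membranes together with GBPs. Its locus (XLOC_006317) had 28, 23 and 4 counts in Scr cultures and 345, 510 and 63 in the Yme1l siRNA cultures. Its log2 fold change was 3.94 (SE 0.80, edgeR test, adjusted p = 0.00301), and its error was the largest of the family. Without Yme1l siRNA replicate 2 the change of *Gm12250* was 3.35. The GENCODE model of *Gm12250*, listed there as a processed pseudogene, has 1274 bases and begins downstream of the RefSeq start whose promoter is shown above. Whether the authors' locus covers the same bases was not tested. *Gm4951* (XLOC_020684), also named *Ifgga2*, had 48, 37 and 10 counts in Scr cultures and 340, 355 and 113 in the Yme1l siRNA cultures. Its log2 fold change was 2.97 (SE 0.56, edgeR test, adjusted p = 0.00199).

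**Figure D1:**
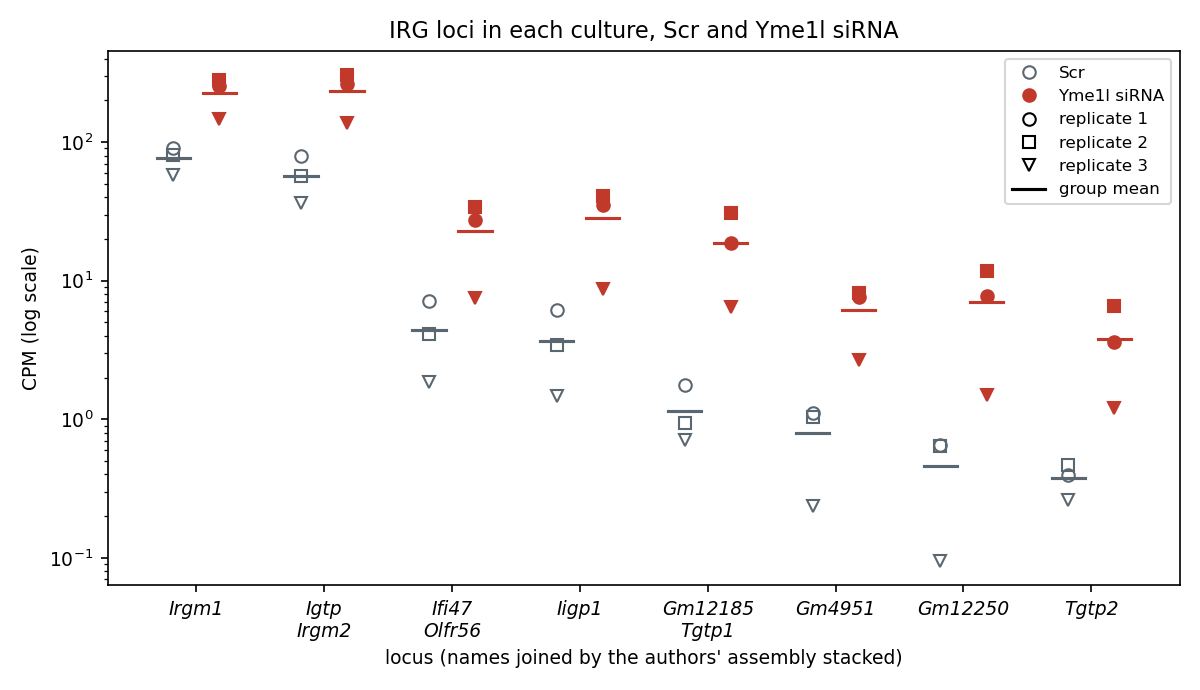
Levels of the 8 IRG loci in each culture, as CPM on a log scale, with open grey symbols for Scr, filled red symbols for Yme1l siRNA, 1 shape for each replicate number and a line at each group mean. Replicate 3, drawn as a triangle, is the lowest culture of both groups at all 8 loci, and the groups come closest at *Ifi47* (7.18 against 7.48 CPM).

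All 8 loci passed the filter on low counts and all 8 were called higher, where 28.4% of the 14499 loci tested were. None was called lower, by edgeR or by any of the other settings tried, where 29.6% of the loci tested were, and none had a negative fold change. A call as higher together with a change of at least 2-fold was given to 8 of 8 loci and to 8.18% of the loci tested. The groups did not overlap, with Yme1l siRNA higher, at 8 of 8 loci and at 31.9% of the loci tested. The median log2 fold change of the 8 loci was 2.95, with a range from 1.57 to 4.03, and that of all loci tested was 0.01. *Gm12250* reached the minimum of the filter in only 2 of the 3 Scr cultures and so passed through its level after knockdown, whereas the other 7 loci reached it in all 3 Scr cultures. Among the loci tested, the fold change of the *Tgtp1* locus ranked 42nd from the top, that of *Gm12250* 47th and that of *Irgm1* 576th.

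The cultures within a group differed more at the IRG loci than at most loci. The highest Scr culture exceeded the lowest by 1.57 to 6.82 times over the 8 loci, with a median of 3.15, and by a median of 1.16 times over the 14438 tested loci with counts in every library. In the Yme1l siRNA group the range was 1.89 to 7.85 times, with a median of 4.66 against 1.19. Replicate 3 was the lowest of both groups at 8 of 8 IRG loci and at 18.1% of the loci tested. Yme1l siRNA replicate 2 was at the same time the highest of its group at 8 of 8 and at 12.8%. This culture also had the least *Yme1l1* transcript (23.4 CPM) and the most *Ifnb1* counts (60), while Yme1l siRNA replicate 3 had the most *Yme1l1* (45 CPM) and the fewest *Ifnb1* counts (11). Their part in the spread of the IRGs was not tested. No IRG call was lost when any library was left out, or when replicate 3 of both groups was left out together, an alternative chosen after the values had been seen.

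Levels of different genes were compared as CPM per kilobase of annotated exon. In Scr cultures *Irgm1* (13.2 ± 2.93, SD, n = 3) and the *Igtp* and *Irgm2* locus (10.3 ± 3.84, SD, n = 3) lay within their spread of each other. They exceeded 71.4% and 65.3% of the 14247 tested loci with an annotated length. *Ifi47* (0.636 ± 0.387, SD, n = 3) and *Iigp1* (0.630 ± 0.401, SD, n = 3) followed, and *Gm12250*, *Gm4951*, *Tgtp1* and *Tgtp2* ranged from 0.361 to 0.128, without separation beyond their spread. After *Yme1l* knockdown the same pair of regulator loci led, at 42.3 ± 15.7 for *Igtp* and *Irgm2* and 39.1 ± 12.1 for *Irgm1* (SD, n = 3 each). The effectors then ranged from 5.50 ± 4.05 for *Gm12250* to 1.29 ± 0.907 for *Tgtp2* (SD, n = 3 each). The authors' group levels after knockdown, also scaled for length (FPKM), ordered the effectors otherwise. They ran from 14 for *Ifi47* to 2.41 for *Gm4951*, with *Gm12250* at 6.18. The joined names lengthen the *Tgtp1* and *Ifi47* loci to 8569 and 6899 exon bases, and that of *Igtp* and *Irgm2* holds 5550. Their counts also hold the reads of the joined genes, and the effect on their values in CPM per kilobase was not tested. The class sums per kilobase below use the same lengths.

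The balance of the classes was measured in each culture as the log2 ratio of the summed effector level to the summed regulator level, per kilobase. It was -3.15, -3.38 and -4.26 in the Scr cultures and -2.02, -1.77 and -3.08 in the Yme1l siRNA cultures. The effectors thus made up 10.1%, 8.79% and 4.95% of the summed IRG level in Scr and 19.8%, 22.6% and 10.6% after *Yme1l* knockdown. The mean ratio moved from -3.60 ± 0.59 to -2.29 ± 0.69 (SD, n = 3 each), a difference of 1.31. An exact two-sided permutation test gave p = 0.1, the smallest that 3 against 3 cultures allow, so the design could not reach 0.05. The separation was narrow, with Yme1l siRNA replicate 3 at -3.08 beside Scr replicate 1 at -3.15. Ordered by their summed IRG level, from 98.9 CPM in Scr replicate 3 to 717 CPM in Yme1l siRNA replicate 2, the 6 cultures were also in the order of their ratio.

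**Figure D2:**
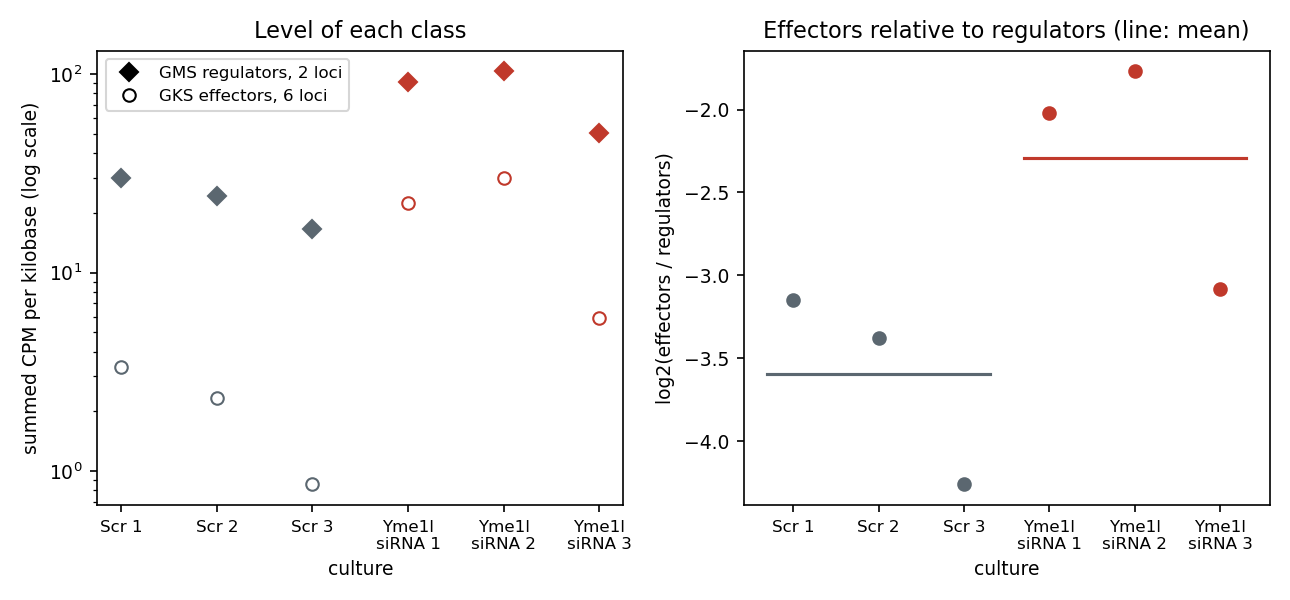
Left, summed CPM per kilobase of the 2 regulator loci (diamonds) and the 6 effector loci (open circles) in each culture, on a log scale, with Scr in grey and Yme1l siRNA in red. Right, the log2 ratio of effectors to regulators in each culture with a line at the group mean, where Yme1l siRNA replicate 3 (-3.08) lies beside Scr replicate 1 (-3.15) and the other Yme1l siRNA cultures lie at -2.02 and -1.77.

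Other genes of the IRG family were taken from a list of 10, of which 5 were tested, and 4 of these were higher and 1 lower, where 28.4% and 29.6% of all loci tested were. The 4 include the locus of *Gm12185* and *Tgtp1*, already counted above, and *Gm5431*, which had 8, 8 and 1 counts in Scr cultures and passed the filter only through its 56, 114 and 21 counts after knockdown. The log2 fold change of *Gm5431* was 3.35 (SE 0.74, edgeR test, adjusted p = 0.00462), or 2.63 without Yme1l siRNA replicate 2. *9930111J21Rik2* rose from 1.57 ± 0.233 to 11 ± 4.56 CPM (mean ± SD, 3 cultures per group), with a log2 fold change of 2.81 (SE 0.33, edgeR test, adjusted p = 0.000183). *Irgq*, an atypical member of the family that interferon is not known to induce, fell from 46.2 ± 2.31 to 21.1 ± 1.78 CPM (mean ± SD, 3 cultures per group), a log2 fold change of -1.13 (SE 0.08, edgeR test, adjusted p = 2.00e-05). Some untested genes had counts almost only after knockdown. *Gm4841* had 0, 1 and 0 counts in Scr and 49, 65 and 5 after knockdown, a ratio of 111 with an exact 95% Clopper-Pearson interval from 19.6 to 4430 that covers counting error only. *Gm5970*, a pseudogene inside *Gm4951*, had 0 counts in Scr and 29, 52 and 5 after knockdown, at least 26.8-fold higher against a floor of 3 counts over the Scr group. The number of higher genes in the list was 7 without Scr replicate 1, 2 or 3 and without Yme1l siRNA replicate 3. The added genes were among those untested with all 6 libraries, since all 5 tested genes already had a call.

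The GBPs, which act on the same vacuoles, had 6 tested loci that hold 9 of the 11 genes of the list, and 4 were higher and none lower, where 28.4% and 29.6% of all loci tested were. The locus of *Gbp6* and *Gbp10* had a log2 fold change of 3.00 (SE 0.35, edgeR test, adjusted p = 0.000173). *Gbp3* rose from 23.3 ± 11.8 to 180 ± 78.1 CPM (mean ± SD, 3 cultures per group) and had a log2 fold change of 2.95 (SE 0.46, edgeR test, adjusted p = 0.000764), and that of *Gbp4*, *Gbp8* and *Gbp9* was 2.21 (SE 0.37, adjusted p = 0.00107). The names of joined GBPs cannot be separated. *Gbp2* (log2 fold change 0.64, SE 0.27, edgeR test, adjusted p = 0.0735) and *Gbp5* (1.17, SE 0.50, adjusted p = 0.0741) were not called. Both passed without Yme1l siRNA replicate 3, with 0.92 (edgeR test, adjusted p = 0.00101) and 1.57 (adjusted p = 0.00262). Without Yme1l siRNA replicate 2 they were further from a call, at 0.38 for *Gbp2* (edgeR test, adjusted p = 0.245) and 0.63 for *Gbp5* (adjusted p = 0.283). *Gbp5* was called by DESeq2 (adjusted p = 0.0187), and with no filter on low counts both were (edgeR test, adjusted p = 0.0167 for *Gbp2* and 0.0245 for *Gbp5*). *Gbp7* (0.97, edgeR test, adjusted p = 0.0146) lost its call without Scr replicate 3 (adjusted p = 0.0552). The median of the 6 loci was 1.69, beside 0.01 for all loci tested.

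**Figure D3:**
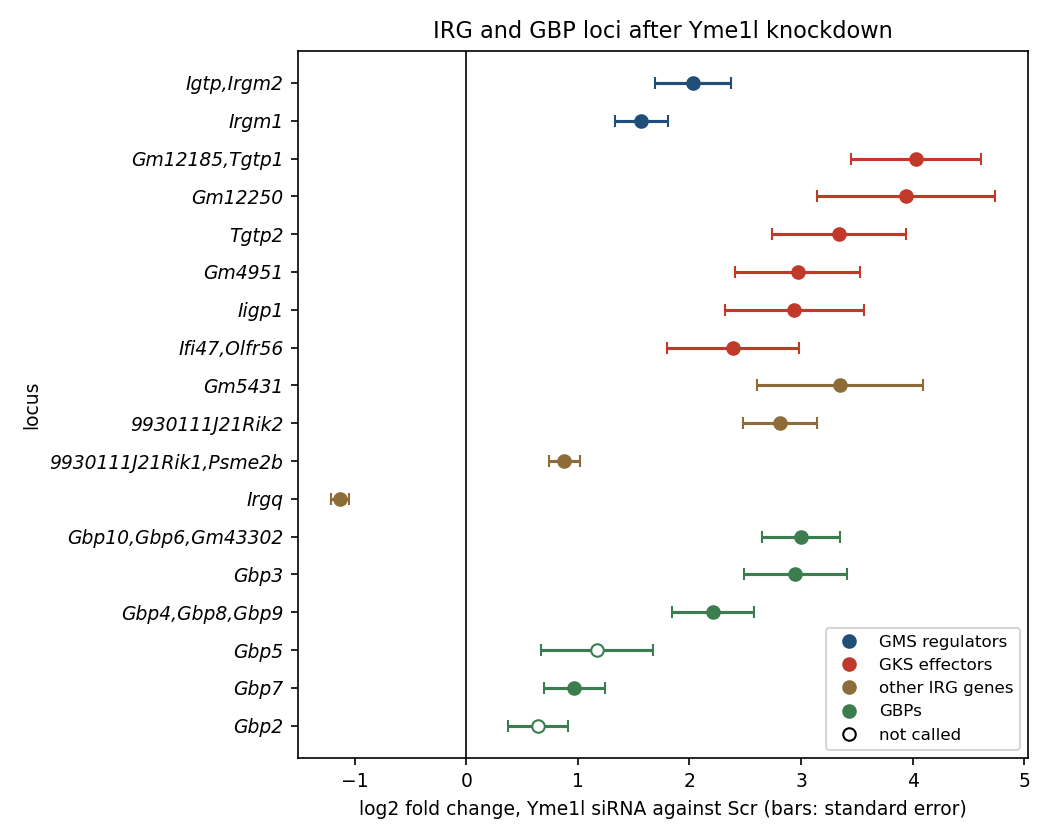
Log2 fold changes of Yme1l siRNA against Scr with standard errors for tested IRG and GBP loci, in blue for GMS regulators, red for GKS effectors, brown for other IRG genes and green for GBPs, with open points for loci not called. The 8 IRG loci of the study list lie between 1.57 and 4.03, *Irgq* lies at -1.13, and *Gbp2* (0.64) and *Gbp5* (1.17) are open.

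IRGs respond both to interferon-gamma and to type I interferons. Of 10 interferon genes, only *Ifnb1* passed the filter (none with a mean of at least 50 counts), with 3, 1 and 0 counts in Scr cultures and 37, 60 and 11 in Yme1l siRNA cultures. The ratio was 25.3, with an exact 95% Clopper-Pearson interval from 9.58 to 94.4 for counting error, and the adjusted p from edgeR was 0.00233. *Ifnb1* passed the filter only through the knockdown group, and its log2 fold change of 4.53 became 5.71 without Scr replicate 1. *Ifng*, which encodes interferon-gamma, had 0, 0 and 2 counts in Scr and 0 in every Yme1l siRNA culture. *Ifna4* had 0 counts in Scr and 4, 6 and 1 after knockdown, and *Ifna1*, *Ifna5*, *Ifnk*, *Ifnl2* and *Ifnl3* had 0 counts in all 6 libraries. A count of 0 allows a level of up to 0.0831 CPM in the smallest library, from 3 counts.

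Genes of interferon reception and signalling were mixed, with 8 of 17 tested loci higher, 5 lower and 4 not called, and a median log2 fold change of 0.16. Of all loci tested, 28.4% were higher and 29.6% lower. *Ifngr1*, the ligand-binding chain of the interferon-gamma receptor, fell from 58.8 ± 1.16 to 29.0 ± 0.204 CPM (mean ± SD, 3 cultures per group), a log2 fold change of -1.02 (SE 0.06, edgeR test, adjusted p = 8.12e-06). *Usp18*, a feedback inhibitor of type I interferon signalling, rose by 2.99 (SE 0.40, edgeR test, adjusted p = 0.000334). The locus of *Irf9* and *Rnf31*, which holds the DNA-binding subunit of the ISGF3 complex, rose by 1.19 (SE 0.18, edgeR test, adjusted p = 0.000677). *Ifngr2* (-0.19, edgeR test, adjusted p = 0.117), *Irf2* (0.16, adjusted p = 0.178), *Socs1* (0.10, adjusted p = 0.375) and *Ifnar1* (-0.05, adjusted p = 0.559) were not called. *Ifngr2* passed as lower without Yme1l siRNA replicate 2 (-0.28, edgeR test, adjusted p = 0.0169) and *Irf2* as higher without Yme1l siRNA replicate 3 (0.24, adjusted p = 0.0453). Without the other of these cultures neither was called, at -0.13 for *Ifngr2* and 0.10 for *Irf2*. The number of lower loci was 3 without Scr replicate 1, 2 or 3 and without Yme1l siRNA replicate 1, and 4 without Yme1l siRNA replicate 3.

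The ATG8 conjugation and vacuole ubiquitin genes that IRG loading draws on were mixed. Of 13 tested loci, 3 were higher, 4 lower and 6 not called, where 28.4% of all loci tested were higher and 29.6% lower, and their median log2 fold change was -0.11. *Atg7*, the activating enzyme of the conjugation, fell from 25.4 ± 1.13 to 13.0 ± 0.904 CPM (mean ± SD, 3 cultures per group), a log2 fold change of -0.97 (SE 0.09, edgeR test, adjusted p = 4.41e-05). *Gabarap*, an ATG8 protein, fell from 359 ± 21.9 to 179 ± 22.5 CPM (mean ± SD, 3 cultures per group) (edgeR test, adjusted p = 7.42e-05). *Atg5*, a part of the conjugating complex, was higher, with a log2 fold change of 0.51 (SE 0.07, edgeR test, adjusted p = 0.000363). The number of lower loci was 2 without Scr replicate 1 or 2 and without Yme1l siRNA replicate 1, and 3 when any other library was left out. *Atg16l1* lost its call whichever of the 6 libraries was left out (edgeR test, adjusted p from 0.0548 to 0.0769).

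Interferon-gamma also induces the class II transactivator *Ciita* in many cells, which had between 1 and 6 counts in every library and was not tested. Of the 4 tested genes in the list of *Ciita* and MHC class II, *Cd74*, the invariant chain, was the only one higher, where 28.4% of all loci tested were. It rose from 3.81 ± 1.37 to 27.8 ± 18.2 CPM (mean ± SD, 3 cultures per group), with a log2 fold change of 2.87 (SE 0.51, edgeR test, adjusted p = 0.00151), or 2.27 without Yme1l siRNA replicate 2. *H2-Ab1* (1.00, edgeR test, adjusted p = 0.0821), *H2-DMa* (-0.33, adjusted p = 0.271) and *H2-DMb1* (-0.17, adjusted p = 0.433) were not called, and *H2-Aa* and *H2-Eb1* had at most 3 counts in any library. *H2-Ab1* passed as higher without Yme1l siRNA replicate 3 (1.25, edgeR test, adjusted p = 0.0328) and *H2-DMa* as lower without Yme1l siRNA replicate 2 (-0.60, adjusted p = 0.0433). Without the other of these cultures they were at 0.53 for *H2-Ab1* (edgeR test, adjusted p = 0.314) and -0.18 for *H2-DMa* (adjusted p = 0.546).

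IRGs are abundant in macrophages, and markers of other cell types were therefore read in the same libraries. Of 14 immune cell markers, 4 were tested, 1 was higher and none lower, where 28.4% of all loci tested were higher. *Cd14* (log2 fold change 0.08, edgeR test, adjusted p = 0.349), *Lyz2* (-0.34, adjusted p = 0.523) and *Cd68* (-0.13, adjusted p = 0.677) were not called. *Adgre1*, *Tyrobp* and *Cd3e* had 0 counts in all 6 libraries, and *Ptprc*, which encodes the pan-leukocyte antigen CD45, had 3 counts in Yme1l siRNA replicate 1 and 0 elsewhere. The summed level of the immune markers was 208, 198 and 193 CPM in the Scr cultures and 286, 273 and 278 CPM in the Yme1l siRNA cultures, with *Csf1r* the most abundant. *Csf1r*, a macrophage growth factor receptor, rose from 123 ± 12.8 to 205 ± 20.3 CPM (mean ± SD, 3 cultures per group), a log2 fold change of 0.74 (SE 0.10, edgeR test, adjusted p = 0.000431). Of 5 endothelial markers, 3 were tested and 2 were higher, with a summed level from 3.79 to 4.08 CPM in Scr and from 5.68 to 7.81 CPM after knockdown, *Tek* the most abundant and *Cldn5* at 0 counts. Of 6 epithelial markers, only *Krt8* was tested and it was higher, with 1, 1 and 1 counts in Scr and 24, 31 and 23 after knockdown, and the summed level was at most 0.194 CPM in Scr and 1.33 CPM after knockdown. *Krt5* had 0 counts in all 6 libraries. *Krt8* and the endothelial marker *Kdr* (3, 9 and 7 counts in Scr, 43, 43 and 38 after knockdown) passed the filter only through the knockdown group.

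The IRG genes lie in 3 clusters. On chromosome 11 of GRCm38, *Irgm1* (minus strand), *Tgtp1* (minus), *Tgtp2* (minus) and *Ifi47* (plus) lie between 48861968 and 49096974, and *Gm12250*, *Igtp* and *Irgm2* (all plus) between 58187739 and 58222782. *Gm4951* and *Iigp1* lie on the plus strand of chromosome 18 between 60212080 and 60392634. No tested locus without an IRG name lay inside these intervals. Within 500 kb on either side, 29 other loci were tested, of which 9 were higher (31.0%), 11 lower and 9 not called, with a median log2 fold change of 0.06. Of all loci tested, 28.4% were higher. Around *Irgm1* to *Ifi47*, 1 of 8 other loci was higher. The number was 3 of 12 around *Gm12250* to *Irgm2* and 5 of 9 around *Gm4951* to *Iigp1*. The median log2 fold changes were -0.20, 0.10 and 0.45 in this order. A difference between the clusters was not tested, and *BC023105*, among the 5, lost its call under several alternatives given below.

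The nearest tested neighbours, named for their position, differed in their calls. *Trim7*, 9.76 kb from *Irgm1*, was lower (log2 fold change -1.43, SE 0.13, edgeR test, adjusted p = 4.76e-05). *Mrpl22*, 8.17 kb from *Gm12250*, was not called (0.06, SE 0.08, edgeR test, adjusted p = 0.559). *Zfp62* (-0.13, edgeR test, adjusted p = 0.183), 106 kb beyond *Ifi47*, and *Zfp692* (0.15, adjusted p = 0.3), 84.3 kb beyond *Irgm2*, were not called either. Beyond *Iigp1*, at 49.1 kb, *BC023105* was higher (1.66, SE 0.57, edgeR test, adjusted p = 0.0345) at a mean of 0.803 CPM after knockdown. The call of *BC023105* was lost with limma-voom (adjusted p = 0.0521), and with the edgeR test without Scr replicate 2 (adjusted p = 0.106), Scr replicate 3 (0.109), Yme1l siRNA replicate 1 (0.0854) or Yme1l siRNA replicate 2 (0.116). Without Scr replicate 1 its log2 fold change was 2.35. *Cd74*, described above, lies 411 kb from *Iigp1*.

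**Figure D4:**
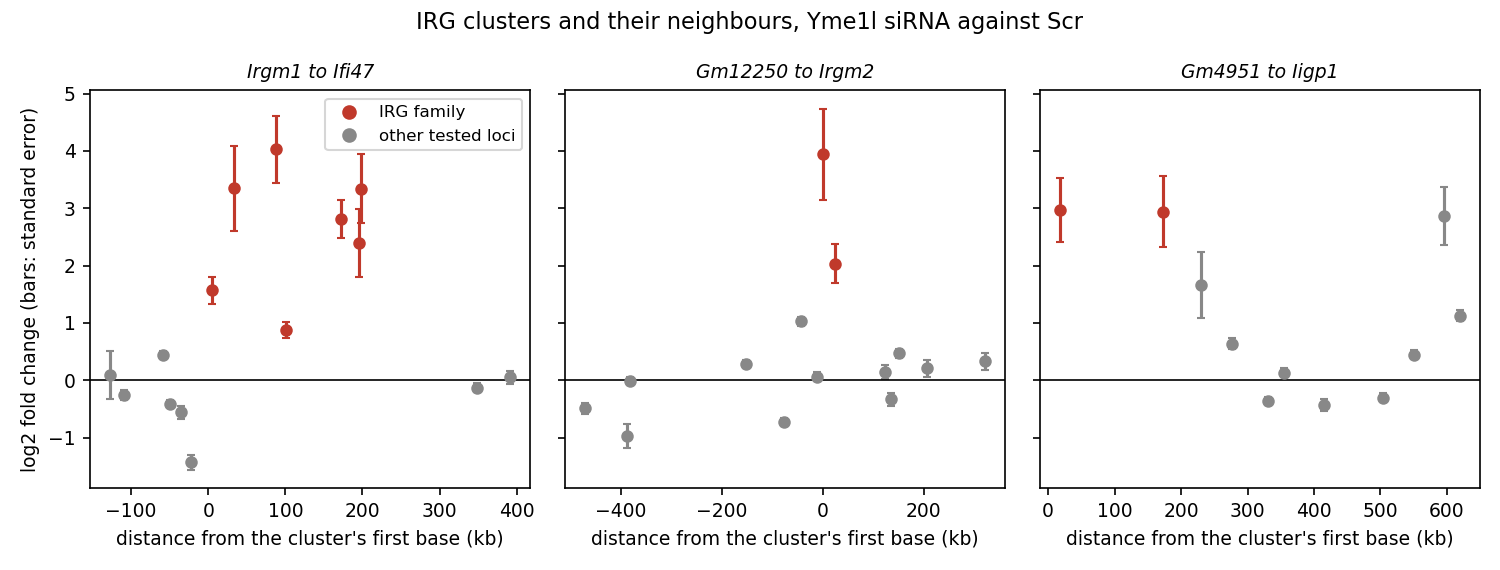
Log2 fold change of Yme1l siRNA against Scr, with standard errors, for tested loci in the 3 IRG clusters (red) and within 500 kb of them (grey), against the distance of the locus midpoint from the first base of the cluster in kb. IRG loci stand above 0 in each cluster, while *Trim7* (-1.43) and *Mrpl22* (0.06) lie next to them, and the grey point at the far right of the *Iigp1* panel with a change of 2.87 is *Cd74*.

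The transcripts most like the IRGs were ranked by the Pearson correlation of their log2 CPM with the mean standardized IRG level, over the 6 cultures and 11436 loci. The 5 highest were *Dhx58* (r = 0.999), *Ifi207* (0.998), *Sp100* (0.998), *Lgals9* (0.997) and *Stat2* (0.997). These correlations are a description of 6 libraries in 2 groups, and most of the shared variation is the difference between the groups. *Dhx58*, which encodes the RNA sensor LGP2, rose from 20.9 ± 9.17 to 115 ± 52.2 CPM (mean ± SD, 3 cultures per group), and *Stat2*, a subunit of ISGF3, from 48.3 ± 15.0 to 151 ± 62.3 CPM (mean ± SD, 3 cultures per group). Their log2 fold changes were 2.46 (edgeR test, adjusted p = 0.00123) and 1.64 (adjusted p = 0.00309).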

How the data were processed

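The authors mapped paired-end reads of stranded poly(A) libraries to GRCm38 with HISAT2 2.0.4, assembled transcripts with StringTie 1.3.3 and compared groups with Cuffdiff 2.2.1, per the methods and the submitters' processing notes. The count table the authors deposited holds raw counts per locus, not normalized. The counting program and its use of the strand and of reads with several matches were not given in the sources used here. A second deposited table holds group levels in FPKM, scaled by Cuffdiff with the 3 libraries combined, which were printed only for single effectors. It also holds the authors' fold changes, test statistics, p-values and q-values, which were not used.

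The members and the gene lists were chosen with earlier results of these data known. The rule for genes named besides the members took *Yme1l1*, *Ifnb1*, *Ifng*, in every list except those of cell type markers the 3 tested genes with the lowest adjusted p, those not called where they were 5 or fewer, and the 5 loci most correlated with the IRGs. Outside this rule, and after their values had been seen, the nearest neighbours of the clusters, *Gbp7*, *Atg16l1*, genes with few or 0 counts and single cell type markers were also named. *Irf8* and *Map1lc3b* matched no name of the table.

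Counts were fitted with edgeR 4.0.16 in R 4.3.3 (TMM, filterByExpr with minimums of 10 and 15 counts, quasi-likelihood test, Benjamini-Hochberg adjustment over 14499 loci, no covariate). A standard error is the log2 fold change divided by the square root of F. DESeq2 1.42.0 and limma-voom 3.58.1, other scale factors, filters and thresholds, a replicate block and leaving out libraries were alternatives. Libraries within groups varied beyond counting error (chi-square per degree of freedom from 9.70 to 69.9). Exon lengths came from GENCODE M21, promoters from RefSeq, and near-identical transcripts (at least 90% over 200 bases) from BLAST 2.17.0. The edgeR test, the motif search and the correlation ranking were checked on simulated data, and the other steps were not. Floors and intervals cover counting error only.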

Additional observations from a re-analysis of the deposited data

How the results depend on the processing

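All 8 IRG loci stayed higher under 15 alternatives, and none of the 120 values for single IRG loci changed its direction or its side of the threshold. The median log2 fold change of the 8 loci ranged from 2.54 (without Scr replicate 3) to 3.35 (without Yme1l siRNA replicate 3), and the difference in the ratio of effectors to regulators from 0.97 to 1.70 under the same 2 settings. The largest adjusted p of an IRG locus was 0.0342, for *Gm12250* with limma-voom, and with 1 library left out 0.0333, for *Ifi47* without Scr replicate 2. Between 3 and 6 GBP loci were higher. Over all loci, 2949 to 4272 were higher and 3225 to 4478 lower. Among 1057 values for 71 other single genes, no called direction reversed, 43 lost a call and 20 gained one, and the cause was not tested. Some genes that were never called changed sign, as *Cd68* from -0.13 to 0.23 without replicate 3 in both groups. Same-numbered libraries correlated weakly in their deviations from the group means (0.0409, 0.116 and 0.192), and no source used here states that equal numbers mean cultures handled together. Scr replicate 1 correlated more with Yme1l siRNA replicate 2 (0.091) than with replicate 1. With a replicate block, the number of all loci higher was 4227 and of all loci lower 4460, with 8 IRG loci higher, 0 IRG loci lower and 5 GBP loci higher. *Gbp2* gained a call as higher with this block (log2 fold change 0.58) and *Ifngr2* a call as lower (-0.19). Counts of 4 to 28 in *Gm12250* and 11 to 17 in *Tgtp2* limit their fold changes in control cultures.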
